A study of Mus musculus with 18 samples.

Results

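MC3T3-E1 cells, which are an established line of mouse pre-osteoblasts, were treated daily with ultrasound on membranes of PLLA (a biodegradable polyester) that carried zinc oxide, a piezoelectric solid. The comparison set 3 libraries from PLLA/ZnO membranes under ultrasound (+US) against 3 from the same membrane without it (-US), chosen by the treatment and title labels, so 6 of the 18 libraries of the series. Cells were seeded at 20000 per well on sterilised 15 mm discs and cultured for 5 days, and the +US wells received 10 min of ultrasound every day. The other 12 libraries came from plain PLLA and from PLLA/ZnO@Col, the same material with collagen, each with and without ultrasound in groups of 3. The cell line, culture time and membrane material were shared by both PLLA/ZnO groups. The frequency and power of the ultrasound and the number of separate cultures are not given in the labels, and a p-value here therefore weighs a difference against the spread of libraries that may be technical replicates. Polyadenylated RNA was counted per gene, and levels are given as FPKM, a count scaled to transcript length and library size.

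Cells sense oxygen through prolyl hydroxylases, which use oxygen to mark the transcription factor HIF-1 alpha for destruction. When oxygen is scarce, or the hydroxylases lack their iron or cofactors, HIF-1 alpha persists and pairs with ARNT on DNA that holds the core motif ACGTG or GCGTG. Its best known targets carry glucose into the cell, run glycolysis, remove lactate and protons, divert pyruvate from mitochondria, clear mitochondria and call in blood vessels. In bone-forming cells this programme accompanies the use of glycolysis during differentiation and couples bone formation to vessel growth through VEGF. Zinc oxide is a source of zinc ions, which cells buffer with metallothioneins.

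The 6 libraries held 48307580 to 58612966 counts, within a range of 48307580 to 78039543 over the series. The +US replicate 3 library stood apart from the other 5. Its correlation with them was 0.907 to 0.936 on the log2 scale, whereas every other pair reached 0.967 to 0.989. In a principal component analysis of all 18 libraries it lay at 0.57 on the first component, against -0.18 to -0.07 for the other 5. It gave 1.57% of its counts to the mitochondrial genome, against 2.5% to 3.43%, and 19.2 CPM (counts scaled to library size) to Y-linked genes, against 93.9 to 144 CPM. Libraries +US 1 and +US 2 were the closest pair, with a chi-square of 15.8 per degree of freedom against 119 to 409 for the other within-group pairs, so they differed by more than counting error and were kept as separate samples. Outside these 6, PLLA +US 3 and PLLA/ZnO@Col +US 2 and +US 3 showed similar traits. They gave 37.9, 41.7 and 46.9 CPM to Y-linked genes and 1.87%, 1.58% and 1.77% to the mitochondrial genome. On the first component they lay at 0.25, 0.34 and 0.23. PLLA/ZnO@Col -US 3 gave 2.48 CPM and 1.83% and lay at 0.28. Results are given below with and without PLLA/ZnO +US 3 where it alters them.

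The mesenchymal identity of the cells was plain in all 6 libraries. The 14 mesenchymal and fibroblast markers summed to 1702 to 1939 FPKM, led by the intermediate filament gene Vim, whereas 9 endothelial markers summed to at most 0.153 FPKM and 6 adipocyte markers to at most 1.22 FPKM. Epithelial and kidney markers summed to between 0.616 and 1.402 FPKM over 11 genes. Chondrocyte markers summed to between 13.5 and 21.9 FPKM, nearly all of it Sox9. Of the defining osteoblast markers, Runx2 and Col1a1 were present, but Sp7 did not exceed 0.746 FPKM, Bglap 0.573 FPKM, Alpl 0.0989 FPKM and Ibsp 0.0286 FPKM, so these 4 were low or near 0 in both groups, whereas Spp1, which encodes the matrix protein osteopontin, lay between 703 and 2321 FPKM. The 12 macrophage and osteoclast markers divided the libraries by replicate number and not by ultrasound. They summed to 24.9 FPKM in -US 3 and 28.7 FPKM in +US 3, and to 47.8 to 51.2 FPKM in the other 4. Cd68, a lysosomal protein of myeloid cells, was at 5.08, 4.99 and 0.891 FPKM in -US 1 to 3 and at 4.64, 4.95 and 0.381 FPKM in +US 1 to 3. Csf1r, the receptor for the macrophage growth factor CSF1, was at 1.34, 1.17 and 0.103 FPKM without ultrasound and at 1.32, 1.06 and 0.129 FPKM with it. Ptprc, the pan-leukocyte marker CD45, did not exceed 0.0721 FPKM. In these pooled lysates fewer cells of a type and less RNA per cell cannot be told apart.

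**Figure D1:**
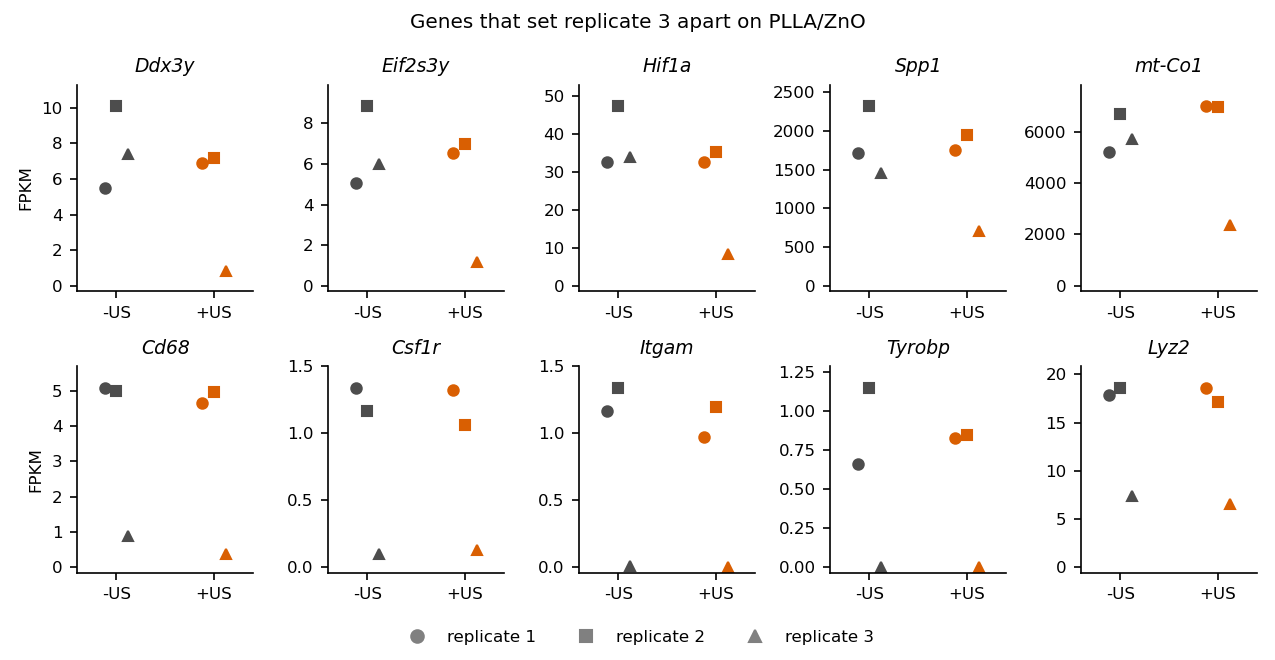
FPKM of 10 genes in each PLLA/ZnO library, without (-US, grey) and with ultrasound (+US, orange); the symbol gives the replicate number. Y-linked Ddx3y and Eif2s3y, Hif1a, Spp1 and the mitochondrial mt-Co1 are low in +US replicate 3 alone, whereas the myeloid genes Cd68, Csf1r, Itgam, Tyrobp and Lyz2 are low in replicate 3 of both groups.

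With ultrasound most tested genes of a hypoxia and glycolysis list had a lower fitted level in the PLLA/ZnO libraries. No single gene was called in the test across all genes. This list and the others below were chosen with earlier results of these data known, so their counts describe them and are no test. Of the 51 tested genes of the hypoxia and glycolysis list, 46 were lower with ultrasound, with a median log2 fold change of -0.38. Of all 11936 genes 53.7% lay below 0, with a median of -0.03. In 23 of the 51 every +US library lay below every -US library, a state shared by 4.62% of all genes, and none of the 51 showed the opposite order, which 6.82% of all genes did. Bnip3, Pdk1, Ak4, P4ha2, Higd1a and Car9 had the smallest p-values. By edgeR's quasi-likelihood test with Benjamini-Hochberg adjustment, 0 of 11936 genes (0.0%) passed an adjusted p of 0.05, the smallest adjusted p was 0.937, and 387 genes (3.24%) had an unadjusted p under 0.05, of which 136 (1.14%) were lower and 251 (2.1%) higher. The list held 20 of those 136 and none of the 251. DESeq2 called 5 genes (0.0419%), namely Pdk1, Bnip3 and Ak4 and 2 clone-named genes, limma on log2(FPKM + 1) and on log2(FPKM + 0.1) called 0, and limma's voom with library weights called 568 (4.76%), 297 lower (2.49%) and 271 higher (2.27%). Without +US 3 edgeR gave 119 genes at an unadjusted p under 0.05, 80 lower and 39 higher, and 0 calls, and without +US 2 it called 1 gene, Gm43302.

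The clone-named calls of DESeq2 rested on 1 or 2 libraries. Gm20521 was at 7.51 FPKM in +US 1 and listed at 0 in the other 5, and Gm49909 was at 0.205, 172 and 73.9 FPKM without ultrasound and at 0.498, 0.187 and 0.204 FPKM with it.

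The promoters are shown for 4 of the 6 list genes with the smallest edgeR p. Those of Ak4 and Higd1a, which lay lower as well, are not shown. They run from 250 bases before to 50 bases after the RefSeq transcript start, on build GRCm38.p6, in the sense of the gene. Capitals mark ACGTG, one form of the HIF core motif, or its reverse complement CACGT. The other form, GCGTG, is not capitalised.
Bnip3 promoter, chr7:138909457-138909756, minus strand: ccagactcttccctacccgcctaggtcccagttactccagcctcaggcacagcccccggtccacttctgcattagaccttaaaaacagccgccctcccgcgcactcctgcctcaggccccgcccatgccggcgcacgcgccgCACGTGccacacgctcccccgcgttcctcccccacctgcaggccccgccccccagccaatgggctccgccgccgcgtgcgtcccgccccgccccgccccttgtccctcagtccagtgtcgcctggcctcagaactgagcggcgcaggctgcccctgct
P4ha2 promoter, chr11:54100674-54100973, plus strand: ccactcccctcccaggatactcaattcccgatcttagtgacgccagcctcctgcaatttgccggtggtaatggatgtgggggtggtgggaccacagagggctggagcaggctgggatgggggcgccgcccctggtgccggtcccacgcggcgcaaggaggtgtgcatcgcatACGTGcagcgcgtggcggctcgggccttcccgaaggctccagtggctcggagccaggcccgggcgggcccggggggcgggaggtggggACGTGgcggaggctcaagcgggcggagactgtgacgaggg
Car9 promoter, chr4:43506776-43507075, plus strand: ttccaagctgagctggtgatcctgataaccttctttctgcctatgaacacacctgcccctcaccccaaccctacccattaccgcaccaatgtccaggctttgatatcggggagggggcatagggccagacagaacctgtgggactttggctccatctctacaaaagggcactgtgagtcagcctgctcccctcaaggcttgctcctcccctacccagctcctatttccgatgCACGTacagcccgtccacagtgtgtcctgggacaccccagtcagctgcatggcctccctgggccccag
Pdk1 promoter, chr2:71872974-71873273, plus strand: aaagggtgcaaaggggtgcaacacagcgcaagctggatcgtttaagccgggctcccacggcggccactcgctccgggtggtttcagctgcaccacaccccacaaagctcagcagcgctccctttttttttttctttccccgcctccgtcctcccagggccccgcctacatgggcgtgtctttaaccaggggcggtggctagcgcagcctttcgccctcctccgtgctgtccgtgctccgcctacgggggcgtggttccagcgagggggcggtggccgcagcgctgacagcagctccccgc
In Bnip3 the match is the palindrome CACGTG, which reads as ACGTG on both strands from bases -108 and -107. P4ha2 held matches that begin at bases -78 and 11 relative to the start, where the first transcribed base is 1, and Car9 held 1 that begins at base -18. The RefSeq start of P4ha2 lies 829 bases from its deposited gene start. Pdk1 held none in this window, but held GCGTG 2 times. Of the promoters not shown, Ak4 held no ACGTG and Higd1a held 1, and each held GCGTG 2 times. Of 40 tested list members with a promoter in the table within 1000 bases of the deposited gene start, 21 (52.5%) held ACGTG on either strand, against 2147 of 7916 tested genes (27.1%). GCGTG was in 22 of the 40 (55.0%), against 54.4% of the 7916. A match is a description of the letters and not a binding site. Because the list collects genes of the hypoxia programme, these shares describe the list. Whether they relate to the ultrasound contrast was not tested.

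Of 9 tested genes that act on mitochondria and energy sensing 8 were lower, with a median log2 fold change of -0.78, the lowest median among the roles of the list. Pdk1, the kinase that shuts pyruvate out of the mitochondrial citric acid cycle (ENSMUSG00000006494, chr2:71873224-71903858, plus strand, GRCm38), was at 13.3, 15.1 and 18.6 FPKM in -US 1 to 3 and at 8.55, 9.61 and 7.43 FPKM in +US 1 to 3. The groups did not overlap, and +US 3 was the lowest library. The log2 fold change was -0.88 (SE 0.18), with an unadjusted p of 0.000155 by edgeR and an adjusted p of 0.0211 by DESeq2. Bnip3, a mitochondrial outer membrane protein that recruits the autophagy machinery (ENSMUSG00000078566, chr7:138890836-138909519, minus strand), was at 50.8, 71.6 and 86.9 FPKM without ultrasound and at 28.8, 35.3 and 28.8 FPKM with it. All 3 +US libraries lay below the lowest -US library, and the -US libraries spread more widely. Its log2 fold change was -1.17 (SE 0.24), with an adjusted p of 0.0211 by DESeq2.

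Ak4, an adenylate kinase of the mitochondrial matrix (ENSMUSG00000028527, chr4:101419277-101466995), was at 6.81, 7.48 and 7.66 FPKM without ultrasound and at 4.49, 4.66 and 5.02 FPKM with it. Both groups were tight and well separated, with a log2 fold change of -0.63 (SE 0.14) and an adjusted p of 0.033 by DESeq2. Higd1a, a protein that associates with respiratory complexes, was at 9.35, 10.7 and 14.2 FPKM without ultrasound and at 5.43, 5.995 and 7.05 FPKM with it, which also did not overlap (log2 fold change -0.89, SE 0.24). Fam162a, a mitochondrial protein induced by hypoxia, was at 113, 141 and 159 FPKM against 73.6, 71.4 and 80.1 FPKM, a log2 fold change of -0.87 with no overlap. Bnip3l, the paralogue of Bnip3, was at 28.1, 26.5 and 38.3 FPKM against 21.7, 21.0 and 11.4 FPKM. Its +US 3 library lay far below the other two, and without that library the log2 fold change moved from -0.78 to -0.54. Reads of Bnip3l could be shared with its pseudogene, so its level is uncertain.

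**Figure D2:**
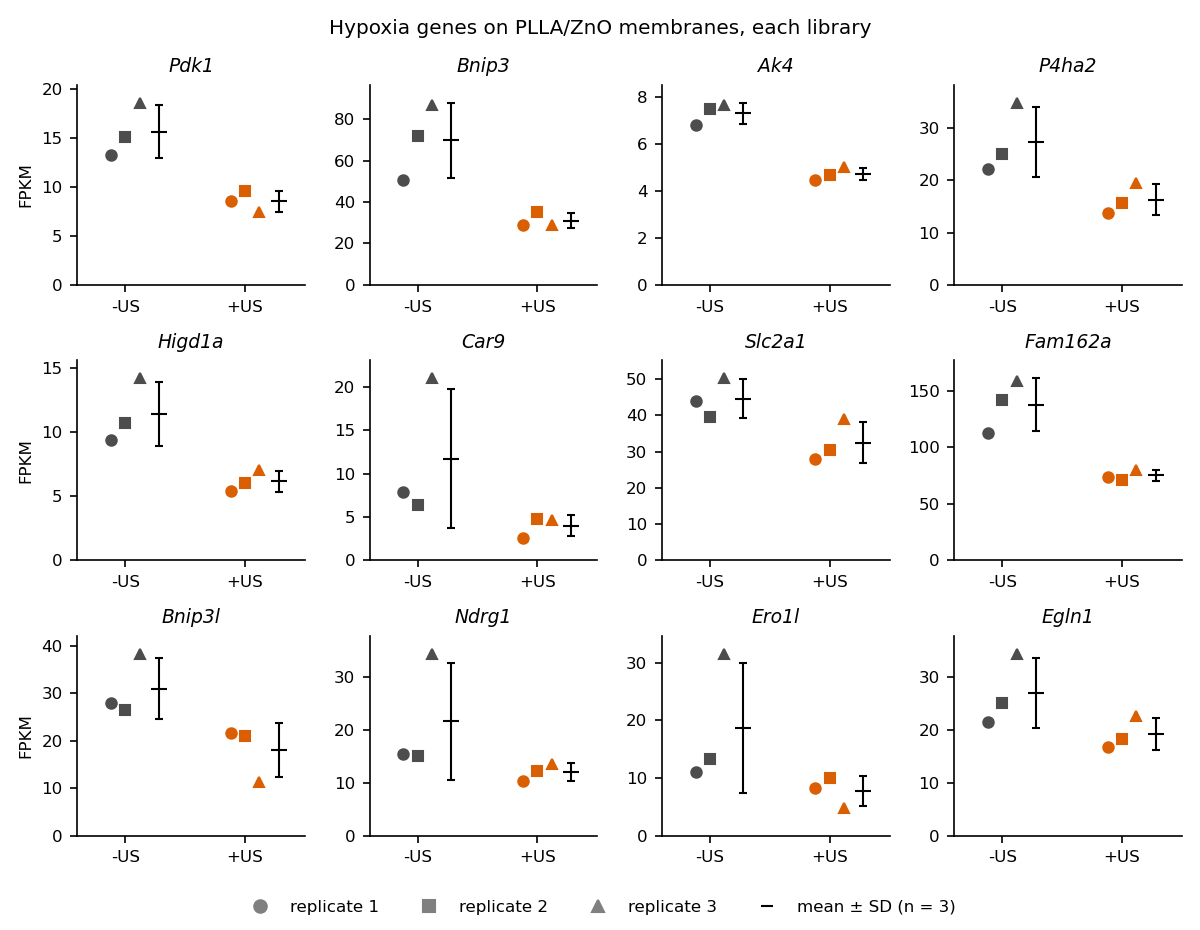
FPKM in each PLLA/ZnO library for the 12 hypoxia and glycolysis genes with the smallest edgeR p, without (-US, grey) and with ultrasound (+US, orange). Symbols give the replicate number and bars the mean ± SD of 3 libraries. The 12 were picked by their p in this same contrast, so their separation follows largely from that choice. Among them 11 show no overlap between the groups, beside 23 of all 51 tested list genes and 4.62% of all genes downwards. The -US replicate 3 library is the highest -US library in all 12, beside 44 of the 51.

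Of the 6 tested genes for glucose, lactate and proton handling, 5 were lower, with a median log2 fold change of -0.43. Car9, the membrane carbonic anhydrase that moves acid out of hypoxic cells (ENSMUSG00000028463, chr4:43506966-43513729), was at 7.90, 6.34 and 21.0 FPKM without ultrasound and at 2.62, 4.77 and 4.61 FPKM with it. The -US 3 library was far above the other two, so the group mean of 11.8 FPKM had an SD of 8.06, yet the groups did not overlap and the log2 fold change was -1.56 (SE 0.44). Slc2a1, the glucose transporter GLUT1, was at 43.8, 39.5 and 50.2 FPKM against 27.98, 30.6 and 38.9 FPKM. These ranges came close without touching, with a log2 fold change of -0.46 (SE 0.14). The lactate transporter Slc16a1 was at 15.9, 19.1 and 16.2 FPKM against 13.9, 15.4 and 10.3 FPKM, and the glycogen branching enzyme Gbe1 was at 4.96, 6.10 and 7.77 FPKM against 4.47, 4.84 and 2.33 FPKM. Both separated the groups, with +US 3 the lowest library of each. Slc2a3, Slc16a3 and Car12 were in the table but under 0.5 FPKM in all 6 libraries and were not tested.

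All 8 tested hydroxylases and demethylases, enzymes that use oxygen as a substrate, had a lower fitted level with ultrasound, with a median log2 fold change of -0.54 and a range of -0.93 to -0.30. P4ha2, a subunit of the collagen prolyl hydroxylase (ENSMUSG00000018906, chr11:54100095-54131662), was at 22.1, 24.9 and 34.8 FPKM without ultrasound and at 13.7, 15.6 and 19.4 FPKM with it. The groups did not overlap, and the log2 fold change was -0.75 (SE 0.18). Its partner P4ha1 was at 72.8, 91.4 and 101 FPKM against 65.0, 67.5 and 69.3 FPKM. Plod2, which hydroxylates collagen lysines, was at 7.32, 11.1 and 13.9 FPKM against 6.57, 7.05 and 3.25 FPKM. P4ha1 and Plod2 separated the groups too, and +US 3 was the lowest library of Plod2. Egln1, the main oxygen-sensing HIF hydroxylase and itself a HIF target, was at 21.4, 25.1 and 34.3 FPKM against 16.8, 18.3 and 22.6 FPKM, so +US 3 reached into the -US range (log2 fold change -0.49, SE 0.18).

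The glycolytic enzymes were lower in 16 of 17 tested genes but by less, with a median log2 fold change of -0.18. Among the 17, 3 separated the groups downwards, beside 4.62% of all genes. Hk2, the inducible hexokinase, was at 17.1, 16.2 and 18.1 FPKM without ultrasound and at 11.2, 12.6 and 12.9 FPKM with it, with no overlap (log2 fold change -0.49). Pfkl, a phosphofructokinase subunit, was at 50.3, 49.9 and 58.0 FPKM against 33.2, 34.1 and 48.9 FPKM, where +US 3 came close to the -US range. Gapdh was at 90.5, 110 and 202 FPKM against 16.5, 15.1 and 54.7 FPKM, the largest difference of the list at -2.23, but mouse Gapdh has many processed pseudogenes, so its count is uncertain. The abundant enzymes showed a different order within the +US group. Pgk1, which makes the first ATP of glycolysis, was at 656, 754 and 802 FPKM against 476, 479 and 716 FPKM. Aldoa, the aldolase, was at 558, 545 and 614 FPKM against 432, 424 and 630 FPKM, and Ldha, which turns pyruvate into lactate, was at 577, 567 and 595 FPKM against 448, 416 and 672 FPKM. In +US 1 and 2 each of these 3 enzymes lay below every -US library, and in +US 3 Aldoa and Ldha lay above every one. Pgk1 and Ldha also have pseudogenes that could share their reads. The library +US 3 was the highest of its group in 15 of the 17 enzymes, and without it all 17 were lower, with a median log2 fold change of -0.36.

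Among 11 tested secreted and vascular genes, 9 were lower, with a median log2 fold change of -0.38. Ero1l, an oxidase of disulfide bonds in the endoplasmic reticulum, was at 11.2, 13.3 and 31.5 FPKM without ultrasound and at 8.28, 10.0 and 4.87 FPKM with it. Ndrg1, a stress-induced cytoplasmic protein, was at 15.5, 15.0 and 34.4 FPKM against 10.3, 12.3 and 13.6 FPKM. Both separated the groups, and in both -US 3 lay far above -US 1 and 2. Vegfa, the main angiogenic growth factor, was at 27.8, 30.7 and 30.8 FPKM against 20.4, 25.5 and 21.0 FPKM. The groups were narrow and did not overlap, but the fitted log2 fold change of -0.42 had an SE of 0.45 in a fit that pools the spread of all 18 libraries. Hmox1, the haem-degrading enzyme, overlapped, at 62.1, 69.0 and 72.7 FPKM against 52.0, 60.1 and 74.9 FPKM. Of the 5 list members with a fitted change above 0 none separated the groups, among them Pdk3, Pgm2, Pfkm and Pgf, which were named after their values were seen.

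**Figure D3:**
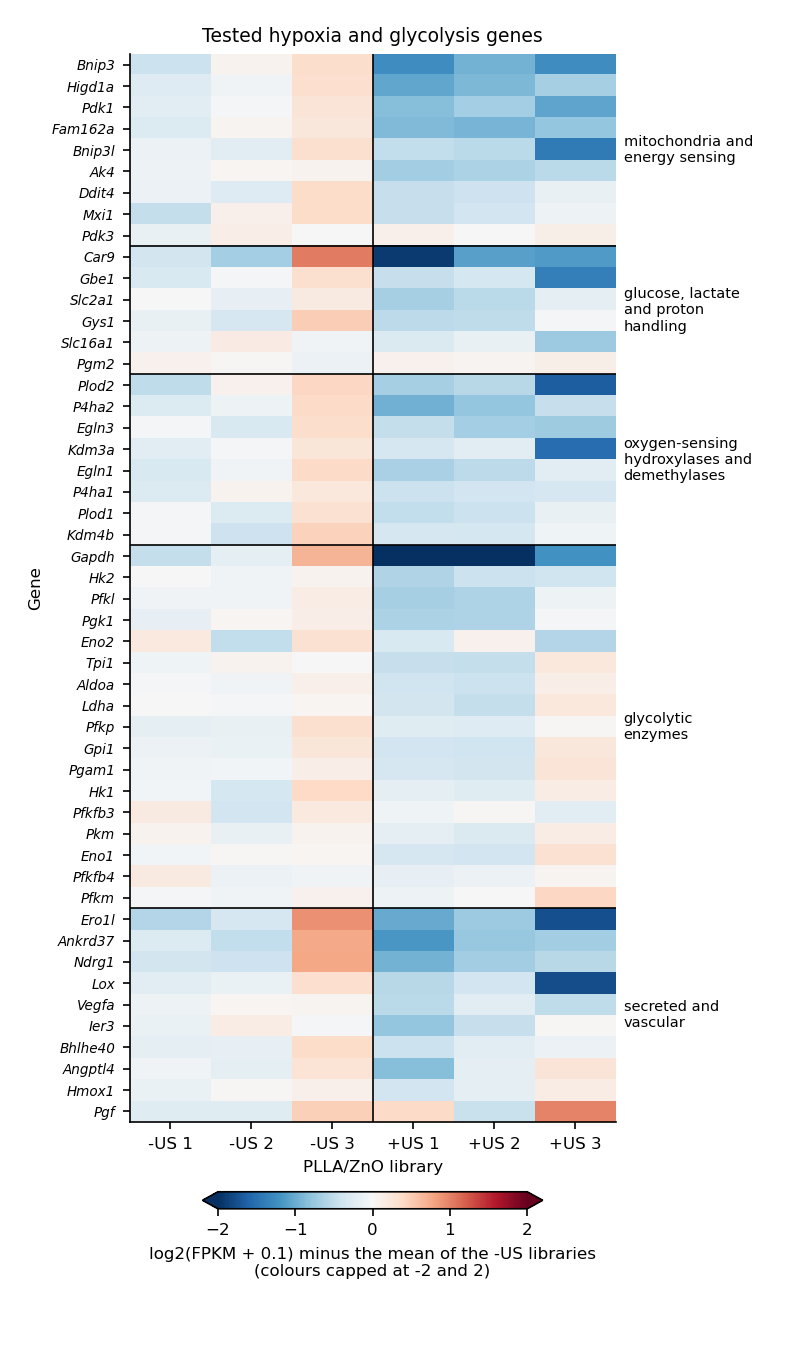
Level of tested hypoxia and glycolysis genes (rows, grouped by role) in the 6 PLLA/ZnO libraries (columns), as log2(FPKM + 0.1) minus the mean of the -US libraries; blue is lower and red higher, and colours are capped at 2 either side of 0. Libraries +US 1 and 2 are blue in most rows, -US 3 is the highest -US library in 44 rows, and +US 3 is the highest +US library in 15 of 17 glycolytic enzymes but the lowest in Bnip3l, Gbe1, Plod2, Kdm3a, Ero1l and Lox.

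The libraries of a group did not carry the pattern equally. The -US 3 library was the highest of the -US libraries in 44 of the 51 genes. Taking each gene against the mean of the -US libraries, the list's median log2 level was -0.11, -0.10 and 0.28 in -US 1 to 3, and -0.45, -0.42 and -0.18 in +US 1 to 3. All 3 +US libraries lay below all 3 -US libraries, and -US 3 and +US 3 were each the highest of their group. In 41 of the 51 genes (80.4%) +US 1 and 2 both lay below every -US library, against 10.3% of all genes. Without -US 3 the median log2 fold change was -0.26 with 45 of 51 lower, without +US 3 it was -0.47 with 49 lower, and without both it was -0.33 with 45 lower. In the fits without +US 3 and without both, 50.0% of all genes lay below 0. The myeloid markers, which were low in both replicate 3 libraries, did not separate the groups, and their part in these values was not tested.

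The messages for the HIF machinery itself showed no shared direction. Of 15 tested components 9 were lower, with a median log2 fold change of -0.04, beside 53.7% of all genes. None separated the groups, beside 4.62% of all genes downwards and 6.82% upwards, so these counts lay near the background. Hif1a, the regulated subunit, was at 32.7, 47.3 and 33.8 FPKM without ultrasound and at 32.6, 35.3 and 8.36 FPKM with it. Only +US 3 departed from the rest, and without it the log2 fold change moved from -0.57 (SE 0.52) to -0.16. Arnt, its partner, was at 10.9, 9.17 and 11.96 FPKM against 11.4, 11.01 and 9.45 FPKM, and Vhl, the ubiquitin ligase subunit that removes it, was at 11.5, 12.4 and 13.3 FPKM against 10.8, 10.4 and 14.1 FPKM. Epas1, the HIF-2 alpha gene, did not exceed 0.0108 FPKM. HIF-1 alpha is controlled largely through the stability of its protein, which these libraries do not measure.

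On plain PLLA membranes the list as a whole lay at the background. There 24 of the 51 genes were lower with ultrasound, with a median log2 fold change of 0.02, beside 49.5% of all genes below 0, and on PLLA/ZnO@Col 29 were lower, with a median of -0.04, beside 52.9%. On PLLA 4 of the 51 separated the groups downwards, beside 5.8% of all genes, among them Bnip3, Bnip3l and Ero1l, with log2 fold changes of -0.22, -0.29 and -0.31. The genes of mitochondria and energy sensing were lower in 6 of 9 on PLLA, with a median of -0.08, and in 9 of 9 on PLLA/ZnO@Col, with a median of -0.12. The difference of the ultrasound contrasts between PLLA/ZnO and PLLA was tested directly, and shares the PLLA/ZnO libraries with the values above. It lay below 0 in 49 of the 51 genes, with a median of -0.39, beside 53.2% of all genes. By edgeR's quasi-likelihood test no gene passed for this difference (0.0%, smallest adjusted p of 1), and 46 of 11936 genes (0.385%) had an unadjusted p under 0.05, of which 26 (0.218%) were lower. DESeq2, limma and limma's voom called 0 as well. The list held 8 of those 26 genes. For Ak4 the difference was -0.62 (unadjusted p of 0.00723), for Bnip3 -0.95 (0.0117), for Car9 -1.73 (0.0134), for P4ha2 -0.70 (0.0153) and for Pdk1 -0.66 (0.0164). Rad52, a DNA repair protein outside the list, gave -0.62 (0.00965), from 1.85, 2.499 and 1.995 FPKM without ultrasound and 1.44, 1.57 and 1.39 FPKM with it.

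The level of the list on PLLA was close to that on PLLA/ZnO with ultrasound. On the scale above, relative to the PLLA/ZnO -US mean, the list's median was -0.39, -0.27 and -0.40 in the 3 PLLA -US libraries and -0.42, -0.36 and -0.27 in the 3 PLLA +US libraries. All 6 PLLA libraries therefore lay below all 3 PLLA/ZnO -US libraries and within the range of the PLLA/ZnO +US libraries. The PLLA/ZnO@Col libraries ranged from -0.39 to -0.02 without ultrasound and from -0.23 to -0.05 with it.

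**Figure D4:**
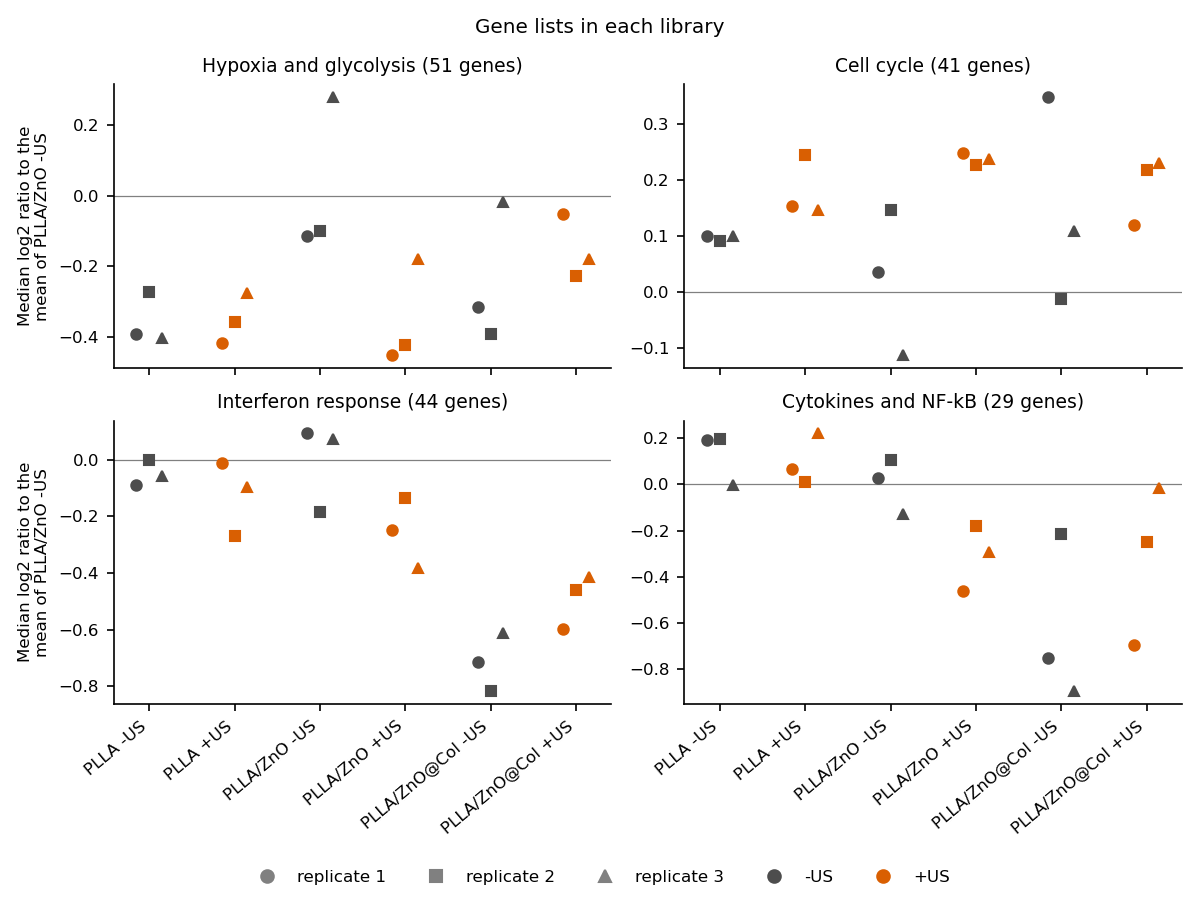
Median over the tested genes of 4 lists of the log2 level relative to the mean of the PLLA/ZnO -US libraries, in all 18 libraries (x axis, 6 groups of 3; symbols give the replicate number, grey -US, orange +US). For the hypoxia and glycolysis list the 3 PLLA/ZnO -US libraries, at -0.11, -0.10 and 0.28, lie above all PLLA and PLLA/ZnO +US libraries, while the 6 PLLA/ZnO@Col libraries lie lowest for the interferon list and 3 of them for the cytokine list.

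Against PLLA/ZnO@Col the difference of the contrasts also gave 0 calls by edgeR's quasi-likelihood test (0.0%, smallest adjusted p of 0.999), with 263 genes (2.2%) at an unadjusted p under 0.05, 204 of them (1.71%) lower. DESeq2 and both limma fits on FPKM called 0, and limma's voom with library weights called 3676. In this difference 47 of the 51 hypoxia genes lay below 0, with a median of -0.33, beside 42.8% of all genes. The genes with the smallest p were Lmbr1l, a membrane protein, Apol6, an apolipoprotein L, and E4f1, a transcription factor. Lmbr1l was at 2.27, 2.43 and 2.11 FPKM without ultrasound and at 1.61, 1.85 and 1.66 FPKM with it on PLLA/ZnO, a log2 fold change of -0.41, and its difference from the collagen membrane was -0.79 (unadjusted p of 0.00173). The collagen libraries -US 1, -US 3 and +US 1 held at most 3.12 CPM of Y-linked reads, and without them 13 genes were called for this difference. Their part in this comparison was not tested further.

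Proliferation genes lay on the higher side with ultrasound. Of 41 tested cell cycle genes 30 were higher, with a median log2 fold change of 0.20, beside 46.3% of all genes, and 11 separated the groups upwards, which 6.82% of all genes did. On PLLA 27 of the 41 were higher, with a median of 0.07, beside 50.5% of all genes, and 9, all of them mitosis genes, separated upwards, beside 4.99%. On PLLA/ZnO@Col 27 were higher too, with a median of 0.08, beside 47.1%. The difference between PLLA/ZnO and PLLA lay below 0 in 8 of the 41, with a median of 0.15, and none of the 41 had an unadjusted p under 0.05 for it. Plk1, the kinase that drives entry into and exit from mitosis (ENSMUSG00000030867, chr7:122159439-122169873), was at 49.4, 48.6 and 46.1 FPKM without ultrasound and at 64.7, 61.3 and 83.0 FPKM with it. All +US libraries lay above all -US libraries, and +US 3 was highest (log2 fold change 0.54, SE 0.17, unadjusted p of 0.00728). Kif20a, a kinesin of cell division, was the tightest, at 36.6, 35.2 and 36.1 FPKM against 46.8, 45.1 and 47.3 FPKM, a log2 fold change of 0.37 (SE 0.13). Aurka, the spindle pole kinase, was at 29.4, 30.2 and 26.2 FPKM against 36.5, 34.7 and 44.2 FPKM, and Mcm7, a subunit of the replication helicase, was at 53.4, 55.5 and 45.7 FPKM against 62.4, 57.8 and 85.1 FPKM. Both separated the groups as Plk1 did. On PLLA Plk1, Kif20a and Aurka also separated the groups upwards, with log2 fold changes of 0.33, 0.20 and 0.26. E2f8, a repressor among the E2F factors that is itself expressed in S phase, was at 4.84, 4.30 and 4.72 FPKM against 6.07, 6.72 and 6.80 FPKM.

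Not every proliferation marker shared that order. Mki67, the usual marker of cycling cells, was at 26.2, 29.6 and 36.6 FPKM without ultrasound and at 38.3, 38.2 and 14.3 FPKM with it. Libraries +US 1 and 2 lay above all -US libraries and +US 3 far below them, so the fitted log2 fold change was -0.02 with +US 3 and 0.31 without it. Over the 23 mitosis genes 16 were higher with all libraries and 23 without +US 3, with medians of 0.10 and 0.23. Gadd45a, a growth arrest gene, was at 5.94, 9.29 and 5.55 FPKM against 4.26, 5.35 and 3.24 FPKM, and Ccng2, a cyclin linked to arrest, was at 4.09, 4.82 and 6.35 FPKM against 3.35, 3.27 and 1.66 FPKM. Both separated the groups downwards, with log2 fold changes of -0.68 and -0.88. On PLLA both separated downwards too, with -0.40 and -0.19. On PLLA/ZnO@Col the values were -0.59 and -0.45, and only Ccng2 separated the groups. On PLLA/ZnO 9 of the 12 tested inhibitors and p53 targets were lower, with a median of -0.17, but without both replicate 3 libraries only 4 were.

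Mybbp1a and Tcof1, both proteins of the nucleolus, were among the genes named on the higher side. Mybbp1a, which binds MYB, was at 60.1, 48.5 and 52.9 FPKM without ultrasound and at 69.3, 67.7 and 94.3 FPKM with it. Tcof1, the treacle protein that supports ribosomal RNA transcription, was at 17.8, 15.4 and 16.3 FPKM against 22.0, 21.4 and 26.3 FPKM. In both the +US libraries lay above the -US libraries and +US 3 was highest, with log2 fold changes of 0.52 and 0.49 that were 0.35 and 0.40 without +US 3. Rnpep, an aminopeptidase, Pknox1, a homeodomain factor, and Rsph3b, a radial spoke protein, were also named on the higher side, with log2 fold changes of 0.50 to 0.64. Rnpep was at 11.8, 11.4 and 11.5 FPKM against 15.3, 14.1 and 21.0 FPKM, and its log2 fold change of 0.53 was 0.34 without +US 3. On PLLA Tcof1 and Rnpep also separated the groups upwards, with log2 fold changes of 0.12 and 0.25, while Mybbp1a, Pknox1 and Rsph3b overlapped. The naming rule required an unadjusted p under 0.01 and separated groups on PLLA/ZnO, which 25 genes met on the higher side and 13 on the lower.

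Interferon-stimulated genes lay lower with ultrasound. Of 44 tested genes 40 were lower, with a median log2 fold change of -0.30, beside 53.7% of all genes. Among them 10 separated the groups downwards, beside 4.62% of all genes. Gbp3, a guanylate-binding protein of antimicrobial defence, was at 3.68, 3.38 and 2.39 FPKM without ultrasound and at 1.71, 2.35 and 0.643 FPKM with it, though reads may be shared among the near-identical Gbp genes. Isg20, an antiviral exonuclease, was at 4.91, 4.22 and 6.54 FPKM against 2.94, 2.82 and 4.26 FPKM, and Rtp4 was at 5.61, 4.17 and 4.57 FPKM against 3.56, 4.44 and 2.36 FPKM. Gbp3 separated the groups by a narrow gap, whereas Isg20 and Rtp4 overlapped by 1 library each. All 10 antigen presentation genes were lower, but with a median of -0.20 and 3 separated. Without +US 3 the list's median was -0.23 with 39 of 44 lower. On PLLA it was -0.05 with 26 of 44 lower, beside 49.5% of all genes. On PLLA/ZnO@Col 29 of the 44 were higher, with a median of 0.11, beside 47.1% of all genes. There 8 of the 10 antigen presentation genes were higher, with a median of 0.50. The PLLA/ZnO library medians, relative to the -US mean, were 0.09, -0.19 and 0.07 in -US 1 to 3. They were -0.25, -0.14 and -0.38 in +US 1 to 3, so -US 2 lay inside the +US range.

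Inflammatory genes took the same side. Of 29 tested cytokine and NF-kB genes 24 were lower, with a median log2 fold change of -0.33, beside 53.7% of all genes, and 8 separated the groups downwards, beside 4.62%. Cxcl5, a neutrophil-attracting chemokine, was at 53.6, 79.0 and 43.5 FPKM without ultrasound and at 22.4, 33.8 and 20.6 FPKM with it. The ranges were well apart, with a log2 fold change of -1.19 (SE 0.56, unadjusted p of 0.0494). Tnfaip3, the feedback inhibitor A20 that NF-kB induces, was at 8.17, 8.78 and 8.37 FPKM against 5.70, 7.01 and 5.87 FPKM, without overlap (log2 fold change -0.45, SE 0.19). Tnfrsf9, the receptor 4-1BB, which the weighted voom fit called, was at 58.8, 57.3 and 68.0 FPKM against 35.2, 42.0 and 57.5 FPKM. All 7 tested chemokines were lower, with a median of -0.70, but on PLLA all 7 were lower too, with a median of -0.25. On PLLA/ZnO@Col 5 of the 7 were higher, with a median of 0.48. Of the whole list 18 of the 29 were lower on PLLA, with a median of -0.08, beside 49.5% of all genes. On PLLA/ZnO@Col 20 of the 29 were higher, with a median of 0.25, beside 47.1%. On PLLA/ZnO Ptgs2, which makes prostaglandins and responds to load in bone, was at 14.0, 18.7 and 10.3 FPKM against 11.1, 13.1 and 3.91 FPKM and overlapped.

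Of 15 tested osteoblast and mineralisation genes 10 were higher, with a median log2 fold change of 0.01. In this list 1 gene, Ank, separated the groups upwards, beside 6.82% of all genes. The median was 0.17 without -US 3, with 10 higher, and 0.10 without +US 3, with 11 higher. Ank is the transporter that exports the mineralisation inhibitor pyrophosphate (ENSMUSG00000022265, chr15:27466677-27594909). It was at 16.2, 15.2 and 16.3 FPKM without ultrasound and at 20.7, 21.6 and 23.2 FPKM with it. Both groups were tight and apart, with a log2 fold change of 0.45 (SE 0.14, unadjusted p of 0.00447) that was 0.41 without +US 3. Dmp1, an osteocyte matrix protein, was at 0.470, 0.308 and 0.848 FPKM against 1.38, 1.29 and 0.666 FPKM, so +US 3 lay inside the -US range. Runx2, the master regulator of the lineage, was at 8.06, 6.89 and 9.46 FPKM against 8.87, 9.44 and 6.22 FPKM, and Col1a1 was at 866, 804 and 1165 FPKM against 944, 947 and 993 FPKM. Neither differed beyond the spread of its libraries, and the sign of Runx2 and Col1a1 varied between the settings tried. Spp1, osteopontin, was at 1706, 2321 and 1446 FPKM against 1750, 1941 and 703 FPKM, where only +US 3 was outside the -US range. Among 25 matrix genes 12 were lower, with a median of 0.02, and 3 separated the groups downwards, beside 4.62% of all genes. That count rested on single libraries, since 3 of the 25 were lower without -US 3, with a median of 0.15, and 17 without +US 3, with a median of -0.04. Timp2, an inhibitor of matrix metalloproteinases, was at 279, 248 and 310 FPKM against 325, 322 and 416 FPKM, with all +US libraries above.

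Of 22 tested BMP and TGF-beta genes 2 separated the groups downwards and 1 upwards. The same counts held for 16 tested Wnt genes, beside 4.62% of all genes downwards and 6.82% upwards. Tgfb1, a growth factor stored in bone matrix, was at 7.01, 6.72 and 6.34 FPKM without ultrasound and at 7.70, 8.09 and 10.9 FPKM with it, separated upwards with +US 3 highest (log2 fold change 0.41, and 0.24 without +US 3). Lef1, the nuclear partner of beta-catenin, was at 0.674, 0.566 and 0.613 FPKM against 0.789, 1.29 and 1.03 FPKM, and Rspo2, a secreted amplifier of Wnt signals, was at 3.33, 3.75 and 3.75 FPKM against 2.87, 2.86 and 1.32 FPKM. These 2 Wnt genes separated in opposite directions. Of 16 tested Wnt genes 14 were lower, with a median of -0.12, but only 5 were lower without both replicate 3 libraries, and of 22 BMP and TGF-beta genes 16 were lower, with a median of -0.07.

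Of 28 channel and calcium genes 17 were higher, with a median log2 fold change of 0.05, and 3 separated the groups upwards, beside 6.82% of all genes. Piezo1, the main stretch-gated channel of osteoblasts, was at 26.1, 16.4 and 24.9 FPKM without ultrasound and at 26.4, 25.6 and 30.0 FPKM with it, and Trpv4, a channel opened by flow, was at 1.37, 1.07 and 1.87 FPKM against 1.48, 1.66 and 1.59 FPKM. Both overlapped. Orai1, the pore of store-operated calcium entry, was at 4.18, 3.18 and 3.17 FPKM against 4.53, 4.55 and 5.62 FPKM, with every +US library above (log2 fold change 0.48, SE 0.19). Of 27 immediate early genes 19 were higher, with a median of 0.12, beside 46.3% of all genes, and 8 separated upwards, beside 6.82%. On PLLA 20 of the 27 were higher, with a median of 0.13, beside 50.5% of all genes, and 1 separated upwards, beside 4.99%. On PLLA/ZnO@Col 23 of the 27 were higher, with a median of 0.38, beside 47.1% of all genes. The difference between PLLA/ZnO and PLLA lay below 0 in 17 of the 27, with a median of -0.06. Egr1, a transcription factor induced within minutes of stimulation, was at 26.4, 23.8 and 26.0 FPKM against 32.6, 31.3 and 35.2 FPKM. Its log2 fold change was 0.36 on PLLA, where the groups overlapped, and 0.74 (SE 0.27) on PLLA/ZnO@Col, where they did not. On PLLA/ZnO its groups did not overlap, while the fitted log2 fold change of 0.38 had an SE of 0.27. Fos was at 3.98, 3.12 and 3.24 FPKM against 4.04, 3.42 and 2.78 FPKM, and the YAP targets Ccn1, at 110, 133 and 112 FPKM against 105, 110 and 114 FPKM, and Ccn2, at 3.71, 4.499 and 3.20 FPKM against 3.87, 4.47 and 4.22 FPKM, overlapped as well. The time between the last ultrasound and harvest is not given in the labels.

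The metallothioneins, which bind zinc and are induced by it, were lower with ultrasound on this zinc-bearing membrane. Mt2 (ENSMUSG00000031762, chr8:94172664-94173568) was at 349, 442 and 353 FPKM without ultrasound and at 193, 236 and 279 FPKM with it. Mt1 was at 119, 143 and 143 FPKM against 86.7, 87.7 and 113 FPKM. In both genes every +US library lay below every -US library and +US 3 was the highest of its group. The log2 fold changes were -0.70 (SE 0.27, unadjusted p of 0.0198) for Mt2 and -0.49 (SE 0.29, unadjusted p of 0.104) for Mt1. On PLLA they were 0.13 and 0.32, and the difference between the membranes was -0.83 for Mt2 (unadjusted p of 0.0433) and -0.82 for Mt1 (unadjusted p of 0.0604). On PLLA/ZnO@Col the values were -0.63 and -0.58. Over the whole zinc list 13 of 18 tested genes were lower, with a median of -0.08, beside 53.7% of all genes. In that list 2 genes separated the groups downwards, beside 4.62% of all genes, and none upwards. Slc30a1, the zinc exporter of the plasma membrane, was at 1.72, 1.59 and 1.5 FPKM against 1.47, 1.63 and 0.649 FPKM and overlapped.

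**Figure D5:**
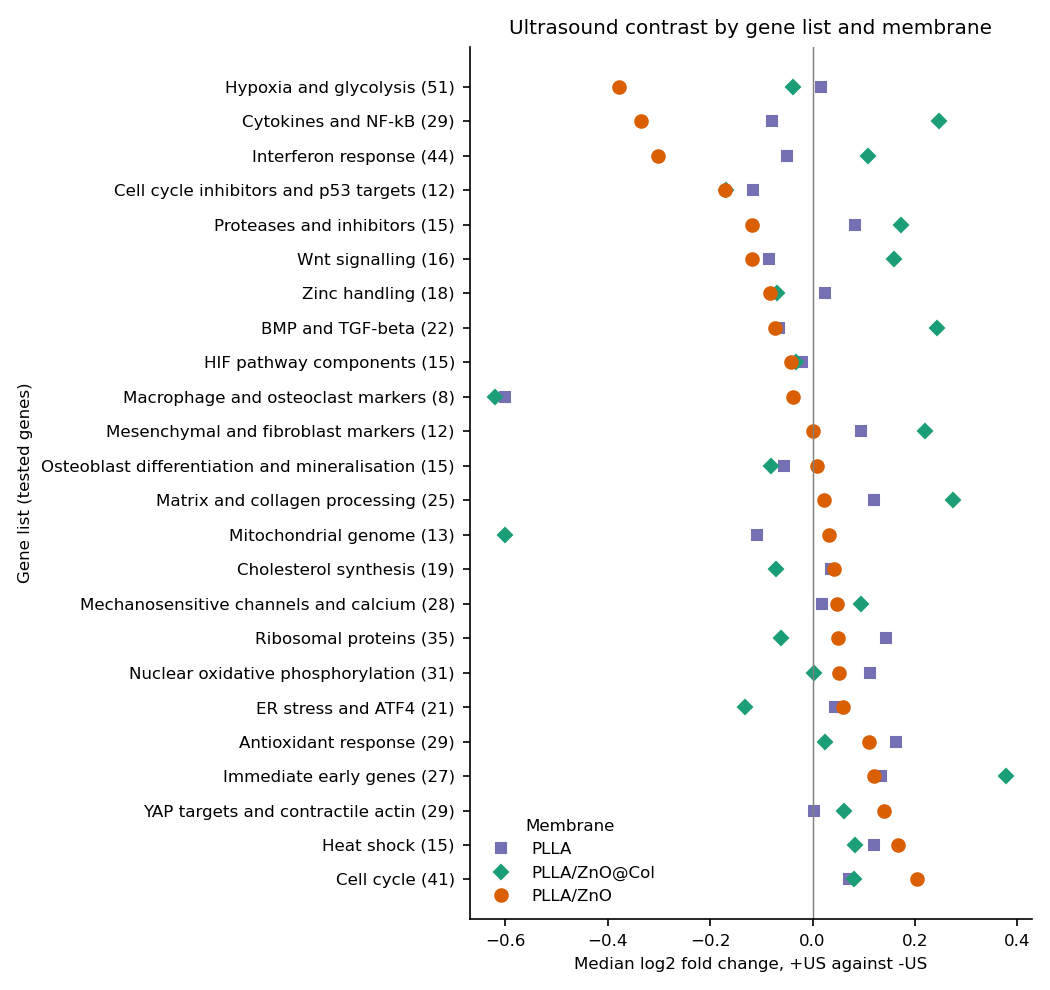
Median log2 fold change of ultrasound against no ultrasound (x axis) over the tested genes of each list with at least 8 of them (y axis, number of tested genes in brackets), on PLLA/ZnO (orange circles), PLLA (violet squares) and PLLA/ZnO@Col (green diamonds). Of the lists plotted, on PLLA/ZnO the hypoxia and glycolysis list lies lowest at -0.38 and the cell cycle list highest at 0.20, while on PLLA these lists lie at 0.02 and 0.07.

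The medians of the stress response lists moved when +US 3 was left out. Of 29 antioxidant genes 24 were higher, with a median log2 fold change of 0.11, but without +US 3 the median was -0.0008 with 15 lower. On PLLA 23 of the 29 were higher, with a median of 0.16, and 7 separated the groups upwards, beside 4.99% of all genes, where 2 did on PLLA/ZnO, beside 6.82%. G6pdx, which supplies NADPH against oxidation, was at 74.7, 63.5 and 64.3 FPKM without ultrasound and at 75.98, 72.5 and 106 FPKM with it. The +US 3 library alone lay far above the -US libraries. Of 15 heat shock genes 12 were higher, with a median of 0.17, and 0.06 without +US 3. On PLLA 11 of the 15 were higher, with a median of 0.12, and 6 separated upwards, where 4 did on PLLA/ZnO. Bag3, a co-chaperone of protein clearance, separated the groups, at 45.4, 45.8 and 52.5 FPKM against 57.6, 58.9 and 71.6 FPKM (log2 fold change 0.39, and 0.28 without +US 3), and Hspa1a, whose reads could be shared with its twin Hspa1b, did not, at 2.86, 2.48 and 2.66 FPKM against 2.83, 2.71 and 2.53 FPKM. Hspa5, the chaperone of the endoplasmic reticulum, lay lower, at 125, 145 and 126 FPKM against 113, 120 and 85.9 FPKM. Vldlr, a lipoprotein receptor that ATF4 induces, was at 2.15, 1.77 and 3.69 FPKM against 1.78, 1.71 and 1.05 FPKM and overlapped. The median of the 13 mitochondrially encoded genes was 0.03 and became 0.28 without +US 3, with all 13 higher, and that of 35 ribosomal protein genes passed from 0.05 to -0.09.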

How the data were processed

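Messenger RNA of 18 MC3T3-E1 libraries was sequenced, per the labels. The submitters' processing notes name cutadapt 1.9, FastQC and build GRCm38. No aligner, counting tool, strand setting or rule for shared reads is given in the sources. The authors deposited whole-number counts per gene, not normalized, and FPKM values, per the file headers. Of 30452 genes, 11936 with at least 1 FPKM in at least 3 libraries were tested in 1 fit of all 18 libraries, with 1 mean for each group and 12 residual degrees of freedom (edgeR 4.0.16, TMM scaling, quasi-likelihood F-test, two-sided, Benjamini-Hochberg over all genes, R 4.3.3). The biological coefficient of variation was 0.28. Where a symbol stood for more than 1 row, the row with the highest mean FPKM kept it. Scripts were tested on simulated data. Libraries held 48307580 to 78039543 counts, deep enough that variation among libraries and not counting error set the precision.

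Alternatives were DESeq2 1.42.0, limma 3.58.1 on log2(FPKM + 1) and log2(FPKM + 0.1), voom with library weights, other scalings, filters and sets of libraries, a replicate block and each library left out. The lists and the comparison were chosen with earlier results of these data known, so lists are described by counts and medians and get no test. Named genes were the 8 lower and 8 higher genes with the largest change among those with an unadjusted p under 0.01, separated groups, at least 2 FPKM and a full gene name, up to 4 members per list (12 of the hypoxia list) under 0.05, a fixed panel, genes called by an alternative (up to 5 for each), and the 3 with the smallest p in each difference. Slc16a1, Gbe1, P4ha1, Plod2, Hk2, Gapdh, Pgk1, Aldoa, Ldha, Arnt, Vhl and Epas1 and the markers of other cell types shown by value were named after their values were seen. Some genes that these rules take are not reported here. Promoter sequences were those of RefSeq, build GRCm38.p6, matched by symbol for 8540 of the 11936 genes.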

Additional observations from a re-analysis of the deposited data

How the results depend on the processing

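The 0 calls for ultrasound on PLLA/ZnO by edgeR's quasi-likelihood test stood under other scalings, filters, limma on FPKM, fewer libraries and the replicate block, but DESeq2 called 5 genes and voom with library weights called 568. The weights were 0.108 for +US 3 and 0.381 for -US 2, against 5.13 for +US 1. Leaving out 1 library gave 0 to 1 calls, the 1 without +US replicate 2. For the difference from PLLA, leaving out 1 library gave 0 to 1 calls, again without +US replicate 2. For the difference from PLLA/ZnO@Col, voom with library weights called 3676 genes, leaving out 1 library gave 0 to 1 calls, and the fit without the 3 collagen libraries lacking Y-linked reads, chosen after seeing the data, called 13. The cause was not tested. The number of genes at an unadjusted p under 0.05 on PLLA/ZnO was 387, and ran from 119 to 530 with 1 library left out, with 750 in the 12 PLLA and PLLA/ZnO libraries, 259 in the 6 libraries compared, 975 of 24753 without the FPKM filter, 281 of 6823 at a mean FPKM of at least 5, 874 without the 3 collagen libraries, 127 without the 4 ultrasound libraries low in Y-linked reads and 110 without both replicate 3 libraries, the last 3 fits chosen after seeing the data. The split of these into lower and higher also moved, to 148 and 111 in the 6 libraries compared and 115 and 331 with DESeq2 size factors.

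The hypoxia and glycolysis median stayed below 0 in the 20 alternatives run, from -0.47 to -0.26 with 1 library left out and from -0.47 to -0.32 in the others. The cell cycle median stayed above 0, from 0.13 to 0.27, the interferon median ran from -0.41 to -0.18 and the cytokine median from -0.44 to -0.25. Signs of Runx2 (13 of 20 alternatives), Fos (14), Mki67 (14), Spp1 (17) and Col1a1 (18) and, of 19 alternatives, Hspa1a (16) and Trpv4 (18) were less steady. Replicate numbers were not taken to pair the libraries, since deviations of same-numbered libraries correlated at -0.144, 0.255 and 0.097, although the libraries numbered 2 and 3 correlated best with their own number. The replicate block gave 0 calls with 417 genes at an unadjusted p under 0.05, 183 lower and 234 higher. At these depths within-group pairs differed by a chi-square of 15.8 to 409 per degree of freedom, more than counting error gives.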

Other observations

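Beside 46.3% of all genes above 0, the lists not described above varied in direction. Of 29 YAP targets and contractile actin genes 17 were higher with ultrasound on PLLA/ZnO, with a median log2 fold change of 0.14, and of 19 cholesterol synthesis genes 11 were higher, with a median of 0.04. Of 15 matrix proteases and their inhibitors 11 were lower, with a median of -0.12. The 31 nuclear genes of oxidative phosphorylation had a median of 0.05 with 20 higher, and without +US replicate 3 a median of -0.05 with 21 lower. The 4 Y-linked genes were all lower, with a median of -0.51, and without that library 2 were lower, with a median of -0.04.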
